A study of Homo sapiens with 4 samples.

Results

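Mitochondrial ribosomal proteins are described here in the breast cancer line T-47D, an established luminal line, after transfection with an artificial microRNA. They were taken as every gene whose symbol in the array platform's annotation begins with MRPL or MRPS followed by a digit, read from probesets that name only that gene. No pseudogene had to be left out. Of 16543 genes with such a probeset the rule gave 74, 45 named MRPL and 29 named MRPS, and all 74 passed the filter on dim probesets and were among the 15719 genes tested. In one group of 2 exon arrays the cells had received the p-27-5p mimic at 200 nM. The group it was set against, also of 2 arrays, came from cells given a pre-miR negative control. Both groups were of the same line and went through transfection with TurboFect, and the control's dose, the time to harvest and the mimic's sequence are not given in the labels. The labels do not say whether a group's arrays are separate cultures, and a p-value here therefore covers the spread among these arrays alone, which may be technical.

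Mitochondria carry their own ribosomes, which translate the few messenger RNAs of mitochondrial DNA, all of them for subunits of the respiratory chain and ATP synthase. Their RNAs come from mitochondrial DNA, but every protein is encoded in the nucleus, made in the cytosol and imported. MRPL genes are named for the large subunit, which joins amino acids, and MRPS genes for the small subunit, which reads the messenger RNA. Some of the proteins have counterparts in bacterial ribosomes and others are specific to mitochondria. By structure MRPS18A and MRPS30 belong to the large subunit. MRPS36 is now called KGD4 in RefSeq and is known as a component of the ketoglutarate dehydrogenase complex.

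The starts of the 3 members with the smallest p each lay close to the start of another gene on the opposite strand, and the bases between the starts are shown because both genes of a pair can be read beside them. They are RefSeq's, build GRCh38.p14, written 5′ to 3′ on the member's strand. Capitals mark the letters of the NRF1 motif on either strand, and would mark those of the ETS motif CCGGAAGT and the YY1 motif AAGATGGC, which had no match in these stretches. The stretch of MRPL30 and MITD1 is 125 bases at chr2:99181059-99181183 (plus strand), that of MRPS27 and PTCD2 is 132 bases at chr5:72320241-72320372 (minus strand) and that of MRPL37 and CYB5RL is 136 bases at chr1:54200031-54200166 (plus strand).
MRPL30: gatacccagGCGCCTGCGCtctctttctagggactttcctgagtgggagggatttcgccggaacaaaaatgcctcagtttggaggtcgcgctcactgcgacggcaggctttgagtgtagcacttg
MRPS27: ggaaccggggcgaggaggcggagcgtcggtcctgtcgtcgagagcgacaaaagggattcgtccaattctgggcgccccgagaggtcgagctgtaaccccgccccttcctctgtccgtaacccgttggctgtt
MRPL37: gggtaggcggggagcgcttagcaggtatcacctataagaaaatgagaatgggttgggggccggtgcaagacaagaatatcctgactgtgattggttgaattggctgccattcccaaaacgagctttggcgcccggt

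Values are log2 levels, the mean of a gene's probesets, and a change is mimic minus control on that scale. Each probeset covers roughly 1 exon or a piece of one. Levels of different genes rest on different probes and are not compared as amounts of RNA. Within a bulk RNA sample, fewer cells and less RNA per cell cannot be told apart. Across all probesets the arrays correlated with r = 0.985 between the mimic arrays, 0.984 between the control arrays and 0.966 to 0.973 between groups. The 12 luminal epithelial markers had mean levels of 6.49 to 12.27, with a median of 9.85. Among them the keratin gene KRT8 had 12.27, GATA3 10.64 and PGR 11.22. The 10 measured fibroblast and leukocyte markers had mean levels of 4.59 to 6.89. Liver and neuron genes, 13 of them measured, had levels of 4.29 to 6.64 and serve as background, which also takes in the lowest luminal marker. The 3 lowest members, MRPS36, MRPS18C and MRPL54, with mean levels of 5.41, 5.42 and 5.54, lay within that background. So did MRPL52, MRPS31 and MRPS33, with mean levels of 5.61, 6.13 and 6.60. A change there may understate what the RNA did or not reflect it at all.

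Most mitochondrial ribosomal protein genes had lower levels in the mimic arrays, by small amounts, and 1 passed the test. MRPL30 fell, and no member rose, by limma's adjusted p under 0.05, which 0.789% of all genes met as lower, 1.52% as higher and 2.31% in either direction. At an unadjusted p under 0.05, 18 of 74 members (24.3%) were lower, against 12.8% of all genes, and 0 were higher, against 7.65% (20.4% of all genes in either direction). A change below 0 was found for 57 members (77.0%), against 49.7% of all genes. The 2 mimic arrays were both under the 2 control arrays for 41 members, against 29.5% of all genes, and above both for 5, against 20.5%. The median change was -0.18, beside 0.00236 over all genes tested, and the members' changes ran from -0.84 to 0.43. The mean over members was 8.47 and 8.52 on the mimic arrays, against 8.62 and 8.73 on the control arrays. These counts turn on single arrays. At an unadjusted p, 5 members (6.76%) were lower when the first mimic array was left out, against 5.73% of all genes in the same fit. Without the second mimic array 7 were lower (9.46%), against 6.49% of all genes, and without the second control array 10 (13.5%), against 9.45%. By adjusted p the count was 0 without either mimic array and 4 without the first control array, where 4.50% of all genes were called lower. Without the second control array the members' median was -0.12, beside -0.043 over all genes. It was -0.16 without the first mimic array, -0.17 without the second and -0.24 without the first control array. Beside these, all genes had -0.0084, -0.0013 and 0.012. With the arrays of equal number taken as pairs (replicate block) the count by adjusted p was 0, against 1.24% of all genes called lower. By unadjusted p in that fit 23 members (31.1%) were lower, against 18.9% of all genes.

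**Figure D1:**
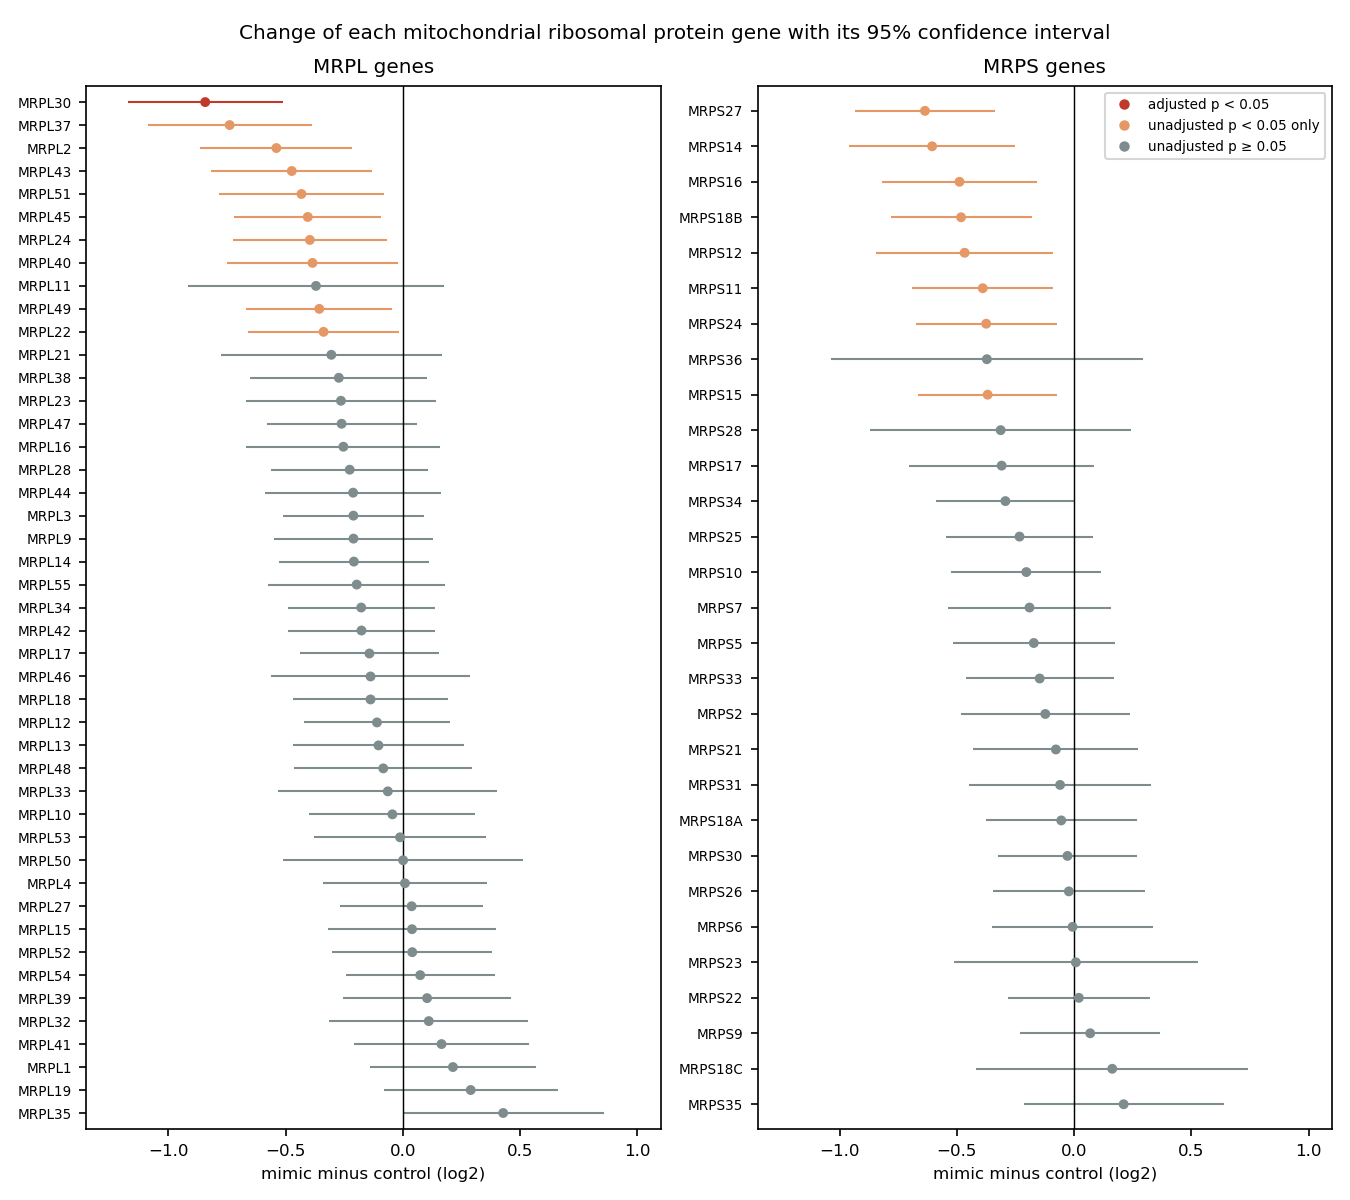
The change (mimic minus control, log2) of each of the 74 genes, MRPL genes on the left and MRPS genes on the right, with limma's 95% confidence interval as a line. MRPL30, in red, has the largest decrease of the 74, at -0.84, the 17 orange genes passed at an unadjusted p only and were all lower, and MRPL35 stands at the high end with 0.43.

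Changes of all genes ran with level. Genes tested with a mean level below 6 had a median change of 0.11, where 4 members had a median of 0.057. From 6 to 7 the 6 members had a median of -0.13 and all genes -0.025, from 7 to 8 the 11 members had -0.084 and all genes -0.086, and from 8 to 9 the 23 members had -0.14 and all genes -0.11. From 9 to 10 the 19 members had a median of -0.29 and all genes -0.13, and from 10 to 11 the 10 members had -0.24 and all genes -0.17. The members' medians were thus further below those of all genes at 6 to 7 and at 9 to 11 than at 7 to 9. At an unadjusted p under 0.05, 0 of 6 members were lower at 6 to 7 (14.1% of all genes there), 2 of 11 at 7 to 8 (20.0%) and 4 of 23 at 8 to 9 (19.8%). The counts were 8 of 19 at 9 to 10 (21.2% of all genes) and 3 of 10 at 10 to 11 (24.1%), and MRPL45, the 1 member above 11, was lower. The part of level in the members' shift was not tested.

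**Figure D2:**
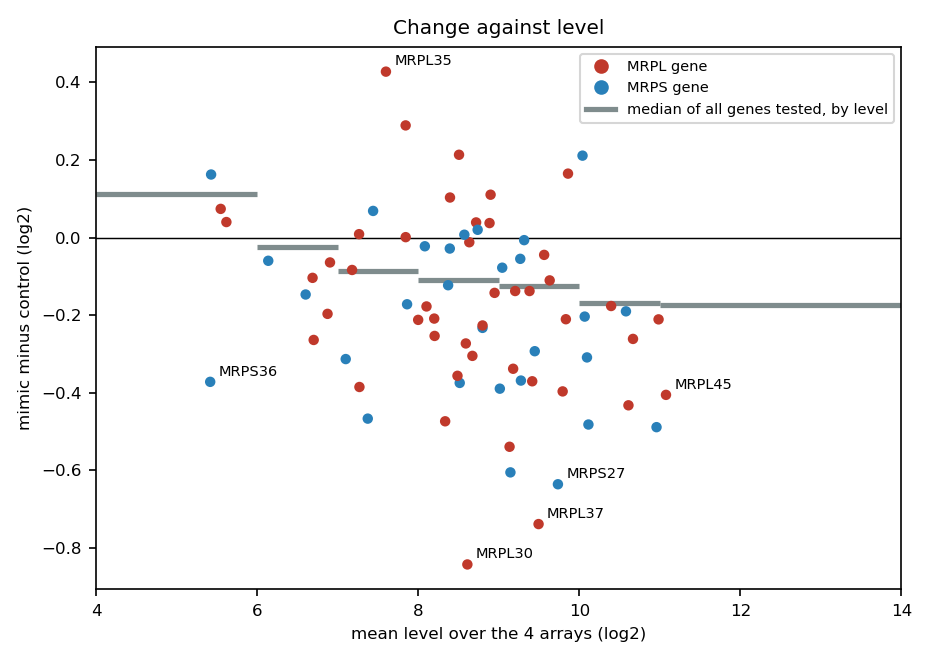
The change of each member against its mean level over the 4 arrays, both on the log2 scale, with MRPL genes in red and MRPS genes in blue. Grey bars give the median change of all genes tested within each range of level and step down from 0.11 below a level of 6 to -0.17 above 10, and members are spread on both sides of the bars.

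Among large-subunit proteins with bacterial counterparts, MRPL30, the counterpart of bacterial L30, had 8.22 and 8.15 in the mimic arrays, against 8.94 and 9.12 in the control arrays. The 2 groups did not overlap, and the gap between them was wider than the spread within either. It averaged 8.19 ± 0.053 in mimic arrays and 9.03 ± 0.125 in control arrays (SD, n = 2 each). The change was -0.84 (SE 0.131, 95% interval -1.17 to -0.51), or 1.79-fold lower, and the limma adjusted p was 0.048. With the replicate block its adjusted p was 0.0534, which missed the threshold, and the series' own text speaks of mimic and control samples as paired. With either mimic array left out MRPL30 missed the threshold (limma adjusted p of 0.205 and 0.219), at changes of -0.88 and -0.81. MRPL2, the counterpart of L2, which lies by the site where peptide bonds form, had 8.94 and 8.79 in mimic arrays, against 9.36 and 9.44 in control arrays. Its arrays did not overlap between groups either, and it did not pass (change -0.54, limma adjusted p = 0.107).

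In all, 20 of the 27 conserved MRPL genes had a change below 0, the median was -0.18 and 4 genes (14.8%) reached an unadjusted p under 0.05, all lower, near the 12.8% of all genes that were lower. The other 2 of those 4 were MRPL24 with -0.40 and MRPL22 with -0.34. MRPL3, the counterpart of L3, had 10.85 and 10.90 in mimic arrays, against 11.06 and 11.12 in control arrays. Its groups were apart but close, at a change of -0.21 (limma adjusted p = 0.392), with an interval from -0.51 to 0.090.

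The largest positive change in the family was also that of a conserved large-subunit gene. MRPL35, the counterpart of L35, had 7.88 and 7.74 in mimic arrays, against 7.57 and 7.20 in control arrays. Both mimic arrays lay above both control arrays, but the control arrays differed by more than the gap between the groups, and MRPL35 did not pass (change 0.43, SE 0.169, limma adjusted p = 0.245). MRPL19 had 8.12 and 7.85 in mimic arrays, against 7.64 and 7.76 in control arrays, and did not pass (change 0.29, limma adjusted p = 0.345). MRPL1, whose bacterial counterpart forms the stalk through which spent transfer RNA leaves, had 8.58 and 8.65 in mimic arrays, against 8.28 and 8.52 in control arrays. For all 3 genes the mimic arrays were the higher ones, and the change of MRPL1 was 0.21 (limma adjusted p = 0.460). MRPL32, which is matured by a protease of the inner membrane, had 0.11 with overlapping groups.

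Of the 18 MRPL genes specific to mitochondria, 13 had a change below 0 around a median of -0.19, and 6 (33.3%) reached an unadjusted p under 0.05, all lower, against 12.8% of all genes. MRPL37 had 9.10 and 9.15 in mimic arrays, against 9.74 and 9.98 in control arrays. The mimic arrays were close to each other and both well below the control arrays, at a change of -0.74 (SE 0.138), and MRPL37 missed the threshold (limma adjusted p = 0.0699). MRPL43 had 7.99 and 8.20 in mimic arrays, against 8.53 and 8.61 in control arrays, with a change of -0.47 (limma adjusted p = 0.145). The remaining 4 were MRPL45, MRPL51, MRPL40 and MRPL49, with changes of -0.41, -0.43, -0.39 and -0.36. MRPL49 was read by 1 probeset. MRPL41 and MRPL39, with 0.16 and 0.10, had the largest positive changes among these genes, and neither passed (limma adjusted p of 0.586 and 0.726).

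Positions on the large subunit can be set side by side. Around the mouth of the tunnel through which the new protein leaves, 3 of 9 genes reached an unadjusted p under 0.05, all lower, and 7 had mimic arrays both under the control arrays, with a median of -0.26. Of all genes 12.8% were lower at that p and 29.5% were separated that way. MRPL45, which lies there and holds the ribosome to the inner membrane, had 10.84 and 10.91 in mimic arrays, against 11.22 and 11.33 in control arrays (limma adjusted p = 0.162). At the stalk that calls in translation factors (MRPL10, MRPL11, MRPL12, MRPL53) 0 of 4 genes reached an unadjusted p under 0.05 in limma's fit, 1 was separated that way and the median was -0.078. MRPL12, the stalk protein itself, had 9.53 and 9.62 in mimic arrays, against 9.64 and 9.73 in control arrays, a change of -0.11 with an interval from -0.42 to 0.20. At the central protuberance 1 of 4 genes was lower at an unadjusted p under 0.05 and 2 were separated, and MRPL40 had -0.39, MRPL38 -0.27, MRPL46 -0.14 and MRPL48 -0.084. None of these 3 groups holds a gene that passed, and differences between them were not tested.

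Small-subunit genes showed a like picture with no call. Of 16 conserved MRPS genes, 14 had a change below 0 around a median of -0.26, and 6 (37.5%) reached an unadjusted p under 0.05, all lower, against 12.8% of all genes. Their median level was 9.03, and among all genes at levels from 9 to 10 the lower share was 21.2%. MRPS14 had 8.95 and 8.73 in mimic arrays, against 9.38 and 9.51 in control arrays (change -0.61, limma adjusted p = 0.103). MRPS16 had 10.65 and 10.77 in mimic arrays, against 11.13 and 11.28 in control arrays (change -0.49, limma adjusted p = 0.131). Both genes were apart between groups, as were the next 2. MRPS11 had 8.78 and 8.85 in mimic arrays, against 9.19 and 9.23 in control arrays, with a change of -0.39. MRPS15 had 9.07 and 9.10 in mimic arrays, against 9.46 and 9.46 in control arrays, with a change of -0.37.

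Among 7 genes of the messenger RNA channel and decoding site, 3 were lower at an unadjusted p under 0.05, against 12.8% of all genes. They were MRPS24, MRPS12 and MRPS11, and the median of the 7 was -0.19. MRPS24, the counterpart of S3, which guides the messenger RNA in, had 8.35 and 8.31 in mimic arrays, against 8.67 and 8.74 in control arrays. MRPS12, the counterpart of S12 at the decoding site, had 6.99 and 7.29 in mimic arrays, against 7.58 and 7.63 in control arrays. The groups were apart for both, at changes of -0.37 and -0.47 (limma adjusted p of 0.172 and 0.173). MRPS18C, with 0.16, was the gene of the largest positive change among conserved MRPS genes, and its 5.29 and 5.73 in mimic arrays overlapped 5.11 and 5.58 in control arrays.

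Of 10 MRPS genes specific to mitochondria, 7 had a change below 0 and 2 were lower at an unadjusted p under 0.05 (12.8% of all genes), with a median of -0.10. MRPS27 had 9.43 and 9.40 in mimic arrays, against 10.02 and 10.08 in control arrays. Replicates were close in both groups and the change was -0.64 (SE 0.119), yet the limma adjusted p was 0.0699. MRPS18B, one of the genes related to bacterial S18, had 9.86 and 9.89 in mimic arrays, against 10.39 and 10.32 in control arrays (change -0.48, limma adjusted p = 0.114). MRPS35 had 10.00 and 10.29 in mimic arrays, against 9.80 and 10.07 in control arrays, so the groups overlapped (change 0.21, limma adjusted p = 0.540). The 2 MRPS genes whose proteins sit in the large subunit, MRPS18A and MRPS30, had -0.055 and -0.028. MRPL54, a large-subunit protein of low level, had 5.65 and 5.51 in mimic arrays, against 5.48 and 5.53 in control arrays (change 0.074). MRPS36 had 5.51 and 4.95 in mimic arrays, against 5.86 and 5.34 in control arrays, with overlapping groups (change -0.37, limma adjusted p = 0.491).

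**Figure D3:**
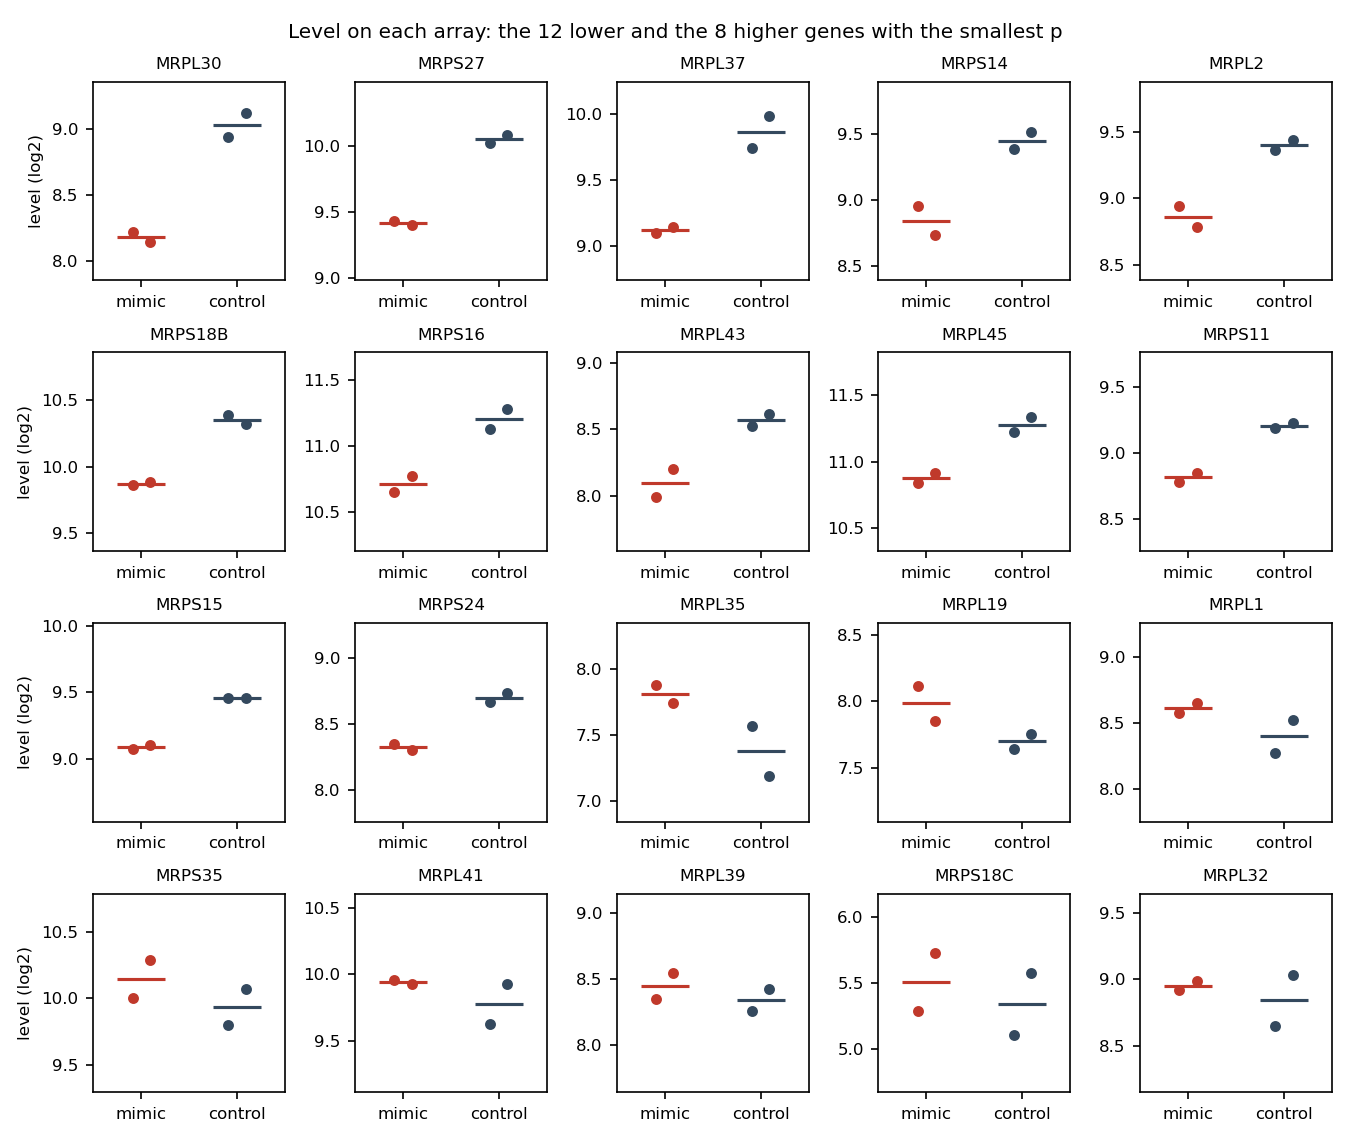
Log2 level on each array (points) and group mean (line), mimic in red and control in dark blue, for the 12 lower and the 8 higher members with the smallest p; every panel spans the same height. All 12 lower genes, from MRPL30 to MRPS24, have both mimic arrays below both control arrays, and of the 8 higher ones MRPS35, MRPL39, MRPS18C and MRPL32 overlap. The genes were picked by p on these same arrays, so the separation of the lower 12 comes with the choice and adds no support.

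Single probesets show how even a gene's change was along its exons. The members had 483 probesets at or above the filter, of which 330 had a change below 0, against 53.5% of all probesets. Limma called 0 of them lower and 0 higher by adjusted p, against 0.0946% and 0.823% of all probesets (0.918% in either direction). At an unadjusted p under 0.05, 80 were lower (9.01% of all probesets) and 11 higher (6.31%). The mimic arrays were both under the control arrays on 217 (27.1% of all probesets) and above both on 66 (20.7%). Of 69 members with more than 1 probeset, 14 had all of them below 0 and 1, MRPL35, had all of them above 0.

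MRPL30 was lower on all 10 of its probesets, with both mimic arrays below both control arrays on 9, at changes from -1.39 to -0.19. The probeset at -0.19 had a level of 10.04, and the brightest probeset, at a level of 10.69, had -0.60. MRPL37 was lower on all 10 (-1.57 to -0.11) and MRPS27 on all 12 (-1.32 to -0.19). All 4 probesets of MRPS14 were below 0, as were all 4 of MRPS16 and all 4 of MRPL45.

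The 3 members with the widest range of change over their probesets had changes of both signs. MRPL23 had changes from -1.30 to 0.85 over 8 probesets, MRPS31 from -1.18 to 0.65 over 5 and MRPL13 from -1.24 to 0.54 over 12. The probesets of MRPL23 at -1.30 and 0.85 had similar levels, 6.55 and 6.74, and its brightest one, at 8.46, had 0.015. Gene values for these 3, at -0.26, -0.060 and -0.10, are means over opposed probesets. Splicing and probe quality were not tested.

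**Figure D4:**
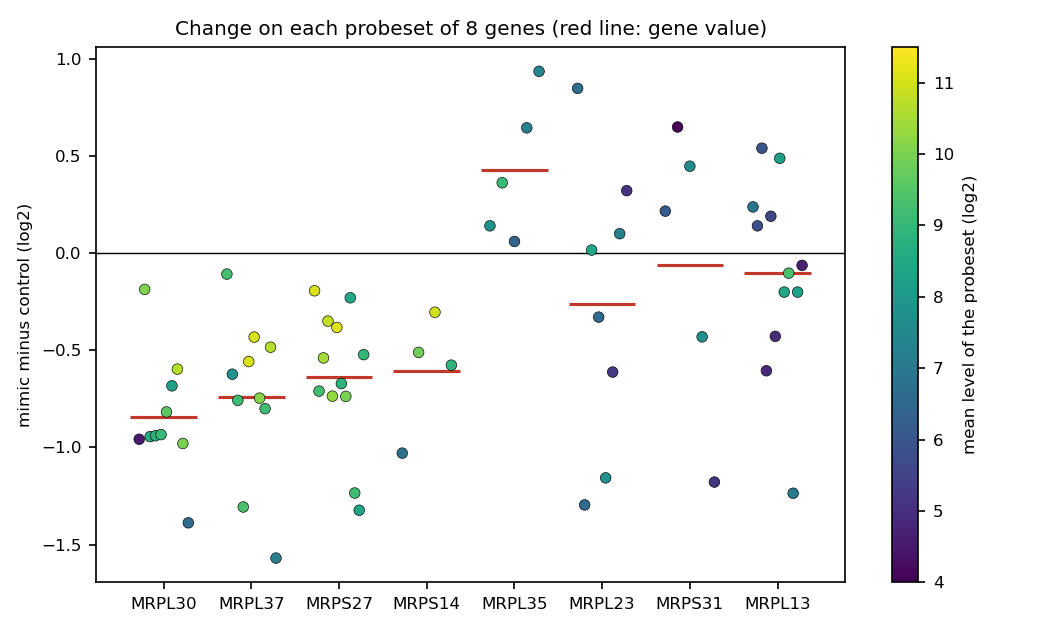
Change on each probeset of 8 genes (points, coloured by mean log2 level) with the gene value as a red line. All probesets of MRPL30, MRPL37, MRPS27 and MRPS14 lie below 0 and all 5 of MRPL35 above it, while those of MRPL23, MRPS31 and MRPL13 spread to both sides.

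Of the 74 members, 66 had an entry in RefSeq's table of promoters, windows of 250 bases before to 50 after the start. Within 1000 bases, 17 of the 66 had a protein-coding gene starting in the opposite direction, and all 17 partners were tested. Limma called 0 partners by adjusted p, against 2.31% of all genes, and 13 had a change below 0, against 49.7% of all genes. At an unadjusted p under 0.05, 2 of the 17 were lower (12.8% of all genes) and 2 were higher (7.65%), both counts near those shares. The lower ones were PIERCE1 beside MRPS2 and the member MRPS11 as partner of MRPL46, and the higher ones MITD1 and HIRA. MITD1, a gene of cell division whose start lies 126 bases from that of MRPL30, had 7.41 and 7.35 in mimic arrays, against 7.01 and 6.96 in control arrays. Its groups were apart in the direction opposite to MRPL30, at a change of 0.39 (limma adjusted p = 0.162). HIRA, a histone chaperone gene beside MRPL40, had 8.50 and 8.61 in mimic arrays, against 8.10 and 8.18 in control arrays (change 0.41, limma adjusted p = 0.155), also opposite to its neighbour's -0.39.

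PTCD2, beside MRPS27, had -0.16 and CYB5RL, beside MRPL37, had -0.36, neither of which passed (limma adjusted p of 0.554 and 0.386). SARS2, the mitochondrial seryl-tRNA synthetase gene that starts 181 bases from MRPS12, had 6.90 and 7.03 in mimic arrays, against 7.09 and 7.23 in control arrays. In that pair both genes had both mimic arrays below both control arrays. The same held for MRPS27 with PTCD2, MRPL37 with CYB5RL, MRPS18B with PPP1R10, MRPL49 with FAU and MRPL18 with TCP1. Taken singly, 29.5% of all genes were separated that way. CYB5RL, at a mean level of 5.63, lay within the background of liver and neuron genes. MRPS11 and MRPL46 are members that start 320 bases apart on opposite strands, with changes of -0.39 and -0.14.

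Promoters were searched on both strands for the letters of 3 factors known to bind near genes of mitochondrial function. AAGATGGC, the YY1 motif, was in 18 of 66 members' promoters (27.3%) and in 3.91% of 15843 promoters of protein-coding genes. CCGGAAGT, the ETS motif bound by GABP, was in 10 (15.2%) against 6.19%, and the NRF1 motif in 6 (9.09%) against 8.58%. Members with the YY1 letters had a median change of -0.23 and the 48 without had -0.16, and this difference was not tested. The letters AAGATGGC hold ATG, so a match can also overlap the start of a coding sequence. The matches of the 4 members among the lower 12 that have one are shown in capitals with the bases around them, 30 bases each, on the gene's strand in GRCh38.p14. They lie at chr5:72320206-72320235 for MRPS27 (minus), chr6:30617852-30617881 for MRPS18B (plus), chr17:38297170-38297199 for MRPL45 (plus) and chr7:43869480-43869509 for MRPS24 (minus).
MRPS27: tggtacgctccAAGATGGCtgcctccatag
MRPS18B: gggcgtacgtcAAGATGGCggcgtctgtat
MRPL45: tttgcgggaacAAGATGGCagcccccatac
MRPS24: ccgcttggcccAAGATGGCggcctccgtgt
In these 4 genes the match starts 14 to 24 bases from the transcript's first base. The genes of the factors themselves did not pass. YY1 had 9.11 and 9.11 in mimic arrays, against 9.12 and 9.20 in control arrays (change -0.046), GABPA had 0.14 and NRF1 0.015.

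Other genes of mitochondrial translation were read from lists. Of all genes, 49.7% had a change below 0 and 12.8% were lower at an unadjusted p under 0.05. Of 6 measured mitoribosomal proteins under other names, 4 had a change below 0 and 2 were lower at an unadjusted p under 0.05. CHCHD1, a small-subunit protein, had 8.56 and 8.51 in mimic arrays, against 9.08 and 9.27 in control arrays (change -0.64, limma adjusted p = 0.0828). GADD45GIP1, a large-subunit protein, had -0.32 and DAP3, the small-subunit GTP-binding protein, 0.079. Among 14 translation factors 4 were lower at an unadjusted p under 0.05, with a median of -0.24. PDF, the deformylase that trims the first residue of new chains, had -0.70 (limma adjusted p = 0.0815), and the recycling GTPase GFM2 had -0.43. The other 2 of the 4, LETM1 with -0.40 and OXA1L with -0.34, are not translation factors. Of 19 genes for mitochondrial aminoacyl-tRNA synthetases and the glutaminyl amidotransferase, 5 were lower and the median was -0.20, with MARS2 at -0.40 and GATB at -0.45.

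Genes of ribosome assembly and ribosomal RNA modification had a smaller median, -0.068 over 24 genes. At an unadjusted p under 0.05, 2 were lower and 1 higher, against 12.8% and 7.65% of all genes. TRUB2, a pseudouridine synthase, had -0.60 (limma adjusted p = 0.114) and MTERF3, a member of the MTERF family, 0.57 (limma adjusted p = 0.142). Over 14 genes of mitochondrial transcription and RNA handling the median was -0.021, and 1 rose. PNPT1, the mitochondrial RNA-degrading enzyme PNPase and a known interferon-stimulated gene, had 10.80 and 10.83 in mimic arrays, against 8.75 and 8.82 in control arrays. Both mimic arrays were far above both control arrays, and PNPT1 rose by 2.03 (SE 0.119, limma adjusted p = 0.00166). Of 9 regulators of mitochondrial biogenesis 0 passed and 2, PPARGC1B with 0.55 and MYC with 0.53, were higher at an unadjusted p under 0.05. PPARGC1B, at a mean level of 5.88, lay within the background of liver and neuron genes.

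The gene families nearest in function had medians somewhat further below 0. Over 48 cytosolic ribosomal proteins the median was -0.31, with 43 below 0 and 21 lower at an unadjusted p under 0.05. Over 40 subunits of the respiratory chain and ATP synthase it was -0.26, with 36 below 0 and 17 lower and 1 higher. Of all genes, 49.7% had a change below 0, and at an unadjusted p under 0.05 12.8% were lower and 7.65% higher. The median levels of the 2 sets were 10.12 and 9.52. The lower share of all genes was 24.1% at levels from 10 to 11 and 21.2% from 9 to 10. Limma called 0 of either set by adjusted p, against 2.31% of all genes. The differences between these medians and the -0.18 of the mitochondrial ribosomal proteins were not tested. NDUFS7, a complex I subunit, had -0.88 (limma adjusted p = 0.0637).

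**Figure D5:**
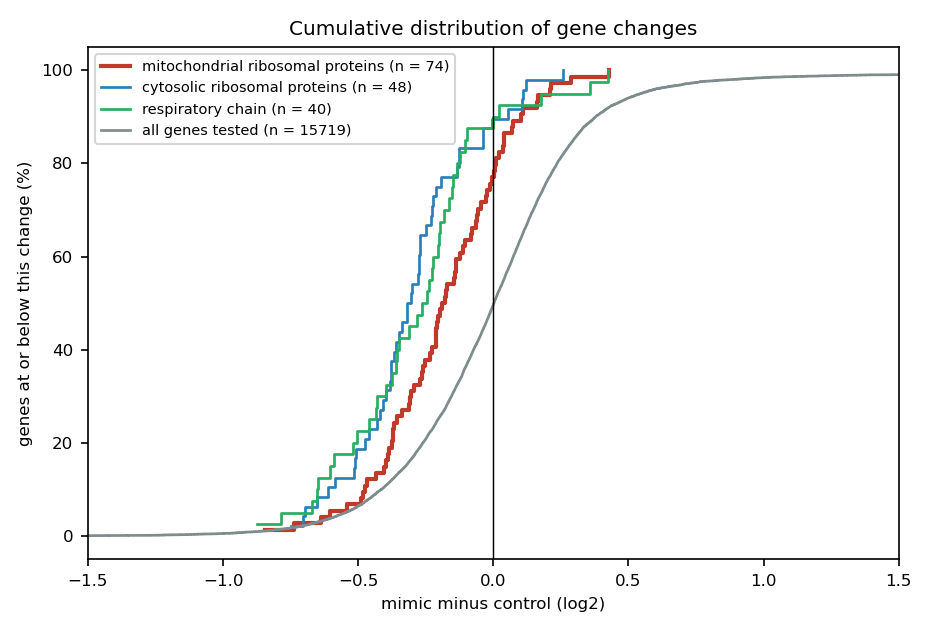
Share of genes (%) at or below each change (mimic minus control, log2) for 74 mitochondrial ribosomal proteins, 48 cytosolic ribosomal proteins, 40 respiratory chain genes and all 15719 genes tested. The line of the mitochondrial ribosomal proteins crosses 0 at 77.0%, to the right of the other 2 families over most of its length and to the left of all genes, which cross at 49.7%.

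Marker lists were read on the same arrays. Of 12 luminal epithelial markers 8 had a change below 0, against 49.7% of all genes, and 4 were lower at an unadjusted p under 0.05, against 12.8%. TFF3 fell by 0.99 on the log2 scale (limma adjusted p = 0.0417). The mean level of that list was 9.65 and 9.78 in the mimic arrays, against 9.84 and 10.03 in the control arrays. Of 10 fibroblast and leukocyte markers, which lie near the background, 9 had a change above 0, and their mean level was 5.50 and 5.52, against 5.19 and 5.33. The 13 liver and neuron genes had a median change of 0.20. The part of these shifts in the members' values was not tested.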

How the data were processed

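Gene expression was measured on 4 Affymetrix exon arrays of T-47D cells. The authors deposited log2 values for 232479 probesets, and the submitters' processing notes name Partek, RMA and build hg18, with no versions or order of steps. Array precision is limited by the small number of arrays. Symbols came from GEO's platform annotation (216780 probesets with 1 symbol, 2335 with several, 13364 unnamed), updated through current RefSeq symbols. A gene's value was the mean of its single-symbol probesets whose mean was at or above the table's 25th percentile, 4.08. All 15719 genes, and separately 163774 probesets, were fitted by group alone using lmFit and eBayes of limma 3.58.1 (R 4.3.3, two-sided tests, 2 residual degrees of freedom, 5.29 with the prior), adjusted by Benjamini-Hochberg and called at 0.05. The script was tested on simulated data. Tables were read with data.table (version 1.17.8) and plots drawn with matplotlib 3.10.9 in Python 3.11.15. SE is limma's moderated one.

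The members, lists and tests were chosen with earlier results of these data known. Genes named in full are members past the threshold, the 12 lower and 8 higher with the smallest p, the 3 highest and 3 lowest levels and the 3 widest probeset ranges. Other members stand as examples of their role group, and up to 3 genes of the smallest p of each other list are named. DAP3, OXA1L, the members MRPL52 and MRPS33, the promoter factors' genes, the divergent partners and the markers KRT8 and GATA3 were named after their values were seen. Alternatives were a replicate block, normalization, the filter, the gene summary, the variance model, the threshold and leaving out each array.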

Additional observations from a re-analysis of the deposited data

How the results depend on the processing

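The count of members called lower by limma's adjusted p, 1, rested on MRPL30 close to the threshold. It was 0 with the replicate block (1.24% of all genes called lower), equal array medians (0.560%), the median of probesets (0.350%) and the brightest probeset (0.0445%). With quantile normalization it was 2 (1.41% of all genes called lower) and at an adjusted p under 0.1 it was 3 (3.35%). Without a filter on dim probesets it was 7 (5.40% of all genes called lower) and with an intensity trend 13 (6.79%). In the main fit 0.789% of all genes were called lower. Leaving out each array in turn gave 0 to 4, with 0 without either mimic array and 4 without control replicate 1. The count called higher was 0 under every alternative run. At an unadjusted p under 0.05 the lower count was 7 with the brightest probeset and 5 to 19 with an array left out (5 and 7 when a mimic array was dropped). The higher count was 1 with the replicate block, without a filter, with probesets above the table's median, the median of probesets or an intensity trend, 2 with the brightest probeset and 0 to 1 with an array left out. The 7 lower members with the brightest probeset were 9.46% of the 74, against 6.04% of all genes in that fit. The MRPL and MRPS medians stayed below 0. The MRPL median was -0.073 with the brightest probeset and -0.24 to -0.12 with an array left out (-0.12 without control replicate 2), and the MRPS median was -0.31 with the median of probesets. With the brightest probeset the members' median was -0.10, against 0.050 over all genes. No member probeset was called with the replicate block, without a filter or with an array left out.

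Under the replicate block, without which the main fit was made, MRPL30 had an adjusted p of 0.0534. Same-numbered arrays deviated together (r = 0.435 over all genes), and the series' text calls mimic and control samples paired without saying what a shared number marks. The adjusted p of MRPL30 ranged from 0.00289 to 0.232. Among the members named in full, directions turned for 8, most of them with changes near 0 in the main fit. They also turned for MRPS36 (-0.37) and MRPL23 (-0.26), which are among the 8. Of all 74 members, 46 had a change below 0 with the brightest probeset, against 57 in the main fit. With the median of probesets MRPL13 had 0.042, MRPL32 -0.055, MRPL39 -0.085, MRPL54 -0.044 and MRPS31 0.097. With the brightest probeset MRPS36 had 0.11, MRPL23 0.015, MRPL39 -0.020 and MRPS18C -0.73, and with probesets above the table's median MRPS36 had 0.11 and MRPS31 0.0076. Leaving out an array gave MRPL13 -0.24 to 0.030, MRPL32 -0.083 to 0.30, MRPS18C -0.073 to 0.40 (-0.058 without mimic replicate 2) and MRPS31 -0.21 to 0.089 (0.0069 without mimic replicate 2). MRPS18C has no probeset above the table's median. The cause was not tested.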

Other observations

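Probesets that name a member together with another gene entered no comparison. There were 10 of them, 4 shared by MRPL30 and C2orf15, 4 by MRPS28 and TPD52 and 2 by MRPS6 and SLC5A3. Those shared by MRPL30 and C2orf15 had levels near the background and changes from -0.22 to 0.19. The 10 probesets of MRPL30 alone had changes from -1.39 to -0.19, a range that meets the former at its upper end. Their levels ran from 4.50, within the background, to 10.69. Those shared by MRPS28 and TPD52 had changes from 0.026 to 0.15, and the 1 probeset of MRPS28 alone had -0.31 with overlapping groups.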
